A study of Mus musculus with 24 samples.

Results

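The genes described here encode the subunits of the mitochondrial respiratory chain that are carried in the nucleus. They were taken from the expression table by symbol: names starting with Nduf and a subunit letter and number (complex I), Sdha to Sdhd (complex II), names starting with Uqcr, and Cyc1 (complex III), and names starting with Cox4 to Cox8 (complex IV). Of 75 matching rows, 68 were protein coding, and 61 of those reached an FPKM (fragments per kilobase of exon, normalized to library size) of 1 or more in 4 or more of 24 libraries. These 61 subunit genes, out of 11377 genes that passed the same filter and 54532 rows in all, divide into 35 of complex I, 4 of complex II, 9 of complex III and 13 of complex IV. Cox6a2 was the only one of them that was not above an FPKM of 1 in all 24 libraries. It reached that level in all 8 WT ACM and WT S1P libraries described below and in 5 of the 16 others.

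The respiratory chain passes electrons from NADH through complex I, or from succinate through complex II, by way of coenzyme Q to complex III, then by cytochrome c to complex IV, where oxygen is reduced. Complexes I, III and IV pump protons across the inner mitochondrial membrane, and ATP synthase uses the gradient. Each of these pumps combines a few subunits made in the mitochondrion with many made from nuclear genes, and several complex IV subunits exist as alternative isoforms, one found in most tissues and another found mainly in heart and skeletal muscle. In macrophages the chain supports alternative activation, and its succinate oxidation and reactive oxygen output are tied to inflammatory activation.

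Messenger RNA was sequenced from macrophages grown for 7 days out of bone marrow of C57BL/6 mice, in serum-containing medium that L929 fibroblasts had conditioned, a cell line that secretes macrophage growth factor. The cells were wild type (WT) or carried the Trem2(-/-) genotype (KO), Trem2 being a lipid-binding receptor of macrophages. Each genotype was left untreated, or was given for 24 hours either sphingosine-1-phosphate (S1P, a signalling lipid) at 500 nM or apoptotic cell culture medium (ACM), with 4 libraries in each of the 6 groups. To make ACM, the mouse hepatocyte line AML12 was treated with palmitic acid at 800 µM for 24 hours and then left in serum-free medium, which was collected. Neither palmitate alone nor medium of healthy AML12 cells was tested, and the labels do not give the medium and vehicle of the untreated cells, the Trem2 allele or the number of animals. The p-values therefore measure the spread between libraries, which may be technical, and since every group has its own run of library numbers, order of preparation and group cannot be told apart.

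Depth was 16.6 to 25.2 M reads per library, as recovered from the FPKM values, and 10579 to 10892 genes reached an FPKM of 1. All 9 macrophage markers were detected, while hepatocyte markers summed to at most 0.0499 FPKM in any library and Serpina1a was at 0. Trem2 averaged 77.8 ± 3.72 FPKM in WT untreated cells and 38.2 ± 2.33 in 3 KO untreated libraries, but 79.6 in the library labelled KO untreated 81. On the first principal component of all genes kept that library lay at 0.775, away from the 11 other KO libraries at -11.9 to -11.0. That library also lay apart from the WT libraries, between untreated (-8.24 to -6.96) and ACM (7.94 to 8.44). Tests that use KO untreated cells are therefore given with and without it, except those under TPM scaling and the other alternative settings. In RNA from whole cultures, fewer cells of a type and less RNA per cell cannot be told apart.

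The promoters of 49 of the 61 genes were found in the RefSeq promoter table (GRCm38.p6). Of these, 3 are shown because they carry the motifs most associated with this gene family and belong to genes described in the results. They are Cox6a1, the complex IV gene with the highest mean FPKM, and Uqcrh and Sdhd, which fell with both treatments in WT cells. With ACM the Sdhd groups overlapped. Each line gives the 250 bases before the start site, 5′ to 3′ on the gene's strand, with matches to the nuclear respiratory factor 1 motif GCGCANGCG or the ETS motif CCGGAAG (on either strand, CTTCCGG on the other) in capitals. The Cox6a1 window is chr5:115348959-115349208, the Uqcrh window chr4:116075071-116075320 and the Sdhd window chr9:50603850-50604099, all on the minus strand.
Cox6a1: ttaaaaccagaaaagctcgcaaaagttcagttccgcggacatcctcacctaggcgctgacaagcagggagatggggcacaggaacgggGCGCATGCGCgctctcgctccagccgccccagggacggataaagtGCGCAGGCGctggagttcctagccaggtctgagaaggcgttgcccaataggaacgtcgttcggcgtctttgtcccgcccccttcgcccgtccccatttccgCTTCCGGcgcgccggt
Uqcrh: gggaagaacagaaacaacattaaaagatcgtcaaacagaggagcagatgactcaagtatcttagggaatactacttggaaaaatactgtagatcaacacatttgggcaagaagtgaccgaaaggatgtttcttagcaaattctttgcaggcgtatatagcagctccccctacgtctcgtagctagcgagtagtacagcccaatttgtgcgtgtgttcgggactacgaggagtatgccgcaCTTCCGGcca
Sdhd: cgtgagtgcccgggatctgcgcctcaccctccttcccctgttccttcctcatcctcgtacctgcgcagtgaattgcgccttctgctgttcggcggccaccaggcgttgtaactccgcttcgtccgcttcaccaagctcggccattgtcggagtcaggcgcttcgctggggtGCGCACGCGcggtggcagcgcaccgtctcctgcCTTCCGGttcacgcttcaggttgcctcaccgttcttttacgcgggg
Cox6a1 had matches to the nuclear respiratory factor 1 motif starting 162, 161 and 117 bases before the start site, the first pair being an overlapping palindrome, and an ETS match 16 bases before it. In Sdhd these matches lay 79 and 46 bases before the start, and in Uqcrh a single ETS match lay 10 bases before it. Over windows from 250 bases before to 50 after the start, read on both strands, the first motif occurred in 27.5% of 51 promoters of the subunit genes (13 genes) and in 6.25% of all 32851 promoters. The ETS motif occurred in 21.6% (11 genes) and 8.86%, and AAGATGGCG, a form of the YY1 motif, in 9.80% (5 genes) and 1.40% of all. Matches of different motifs shared bases in 0 of the 51 promoters, and the motif list was chosen with the expression values known. Median GC content was 57.3% in the subunit promoters and 52.7% in all promoters. TGACNNNGC, the core of the antioxidant response element, occurred in 17.6% and 12.4%. For muscle regulators, the E-box CAGCTG occurred in 7.84% and 16.3% and the MEF2 motif CTANNNNTA in 11.8% and 21.04%. The nuclear respiratory factor 1 and MEF2 motifs were first counted with the base that completes their palindromes, which gave 23.5% (11 genes) and 4.60% for the former and 1.96% (1 gene) and 3.69% for the latter. Each was shortened by that 1 letter after those counts were seen, and the shorter forms used above occur more often. A match is a stretch of letters, not a binding site.

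Most of the family was measured at nearly the same level in all 6 groups. Mean FPKM over the 24 libraries ran from 5.08 to 286 with a median of 43.0, and the median coefficient of variation over libraries was 7.01%, against 10.6% over all genes kept. This coefficient was under 10% in 51 of 61 subunit genes and in 5270 of 11377 genes kept. The median of mean FPKM over all genes kept was 7.30, and no comparison of spread at equal level was made. In 50 of 61 the highest group mean was under 1.2 times the lowest. The share of all genes kept under that limit was not counted. FPKM is scaled by all annotated exon bases of a gene, for example 4995 for Ndufb5 and 572 for Ndufa2. Whether these cells transcribe all of those bases was not tested, so levels of different genes compare only roughly. On this scale complex I ran from Ndufb5 at 7.14 to Ndufa2 at 128, and complex II from Sdhc at 43.2 to Sdhd at 89.8. Complex III ran from Uqcrc1 at 34.3 to Uqcr10 at 96.4, and complex IV from Cox7a1 at 5.08 to Cox6a1 at 286. Ndufb5 and Ndufa2 are accessory subunits of complex I, Uqcrc1 is a core protein of complex III and Uqcr10 one of its small subunits.

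The summed FPKM of each complex differed little between groups. For complex I the sum was 1248 ± 44.5 untreated, 1234 ± 51.1 with ACM and 1283 ± 49.7 with S1P in WT libraries, and 1247 ± 23.5, 1270 ± 76.7 and 1317 ± 57.3 in the matching KO groups (SD, n = 4 each). Complex II gave 241 ± 5.29, 238 ± 4.11 and 233 ± 7.41 in WT and 231 ± 9.97, 238 ± 1.41 and 240 ± 4.75 in KO cells. For complex III the sums were 519 ± 23.8, 505 ± 12.1 and 533 ± 9.50 in WT and 517 ± 17.8, 525 ± 24.8 and 544 ± 23.3 in KO cells, and for complex IV 1348 ± 51.9, 1331 ± 39.3 and 1349 ± 35.7 against 1345 ± 52.3, 1372 ± 76.7 and 1422 ± 58.4. With all 24 libraries the ranges of all pairs of groups overlapped in complexes I, II and IV. In complex III the range of WT ACM (489 to 515) lay below WT S1P (522 to 541) and KO S1P (516 to 564). Leaving out library 81 gave KO untreated sums of 1242 ± 26.5, 227 ± 4.59, 524 ± 15.5 and 1353 ± 60.9 (SD, n = 3) for complexes I to IV. In complex II those 3 libraries (221 to 230) lay below WT untreated (236 to 248) and WT ACM (235 to 244). They also lay below KO ACM (237 to 240) and KO S1P (234 to 244), and overlapped WT S1P (224 to 242).

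**Figure D1:**
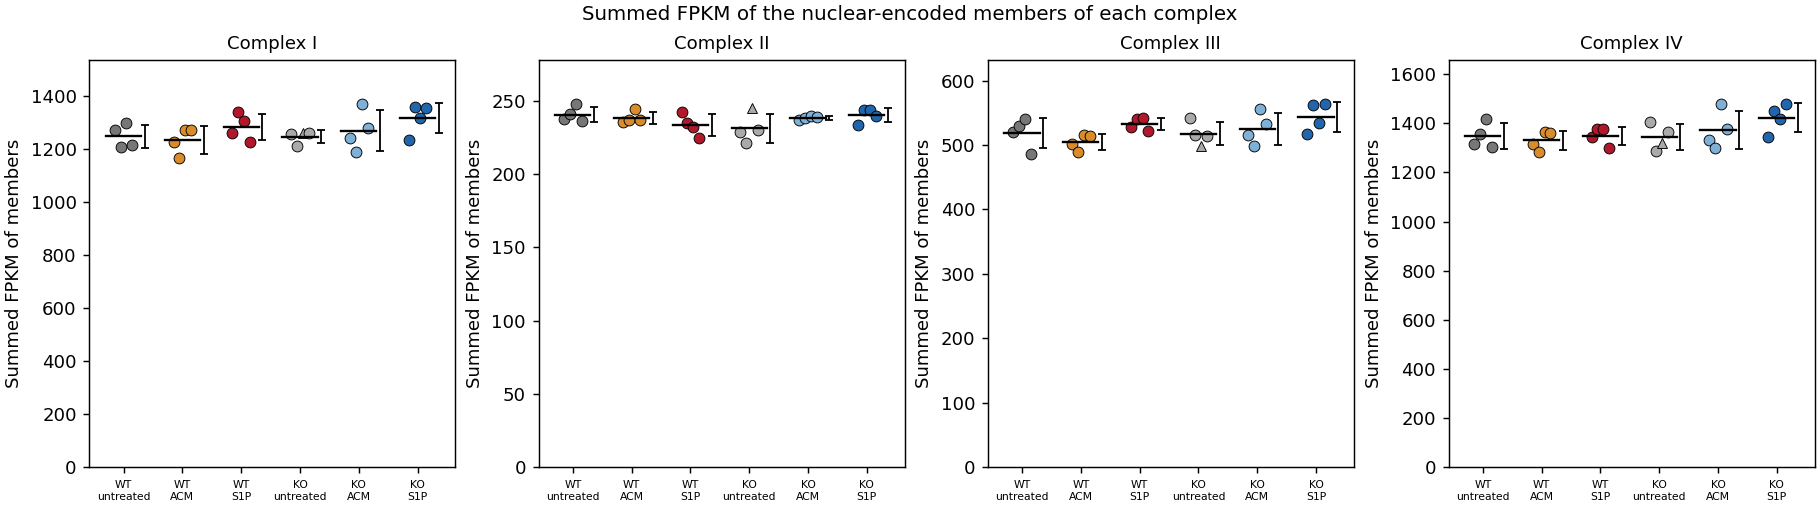
Summed FPKM of the nuclear-encoded subunits of each complex, 1 point per library, by group; lines are group means, bars 1 SD and the triangle the library labelled KO untreated 81. All axes start at 0, and complex I group means lie between 1234 and 1317.

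The exception was Cox6a2, the heart and skeletal muscle isoform of complex IV subunit VIa (ENSMUSG00000030785, chr7:128205435-128206387, minus strand, GRCm38). Its FPKM was 1.38, 1.19, 0.750 and 0.971 in the WT untreated libraries, 4.07, 6.27, 4.86 and 5.80 with ACM, and 17.7, 21.9, 32.9 and 30.7 with S1P. The 3 WT groups did not overlap, and S1P libraries were the highest. WT S1P libraries 27 and 28, the highest, also lay farthest out on the first principal component (37.0 and 36.1, against 20.9 and 26.6 for libraries 25 and 26), and the part of this spread in the result was not tested. In KO cells it was 0.643, 0.654, 1.86 and 0.396 untreated, 1.08, 0.725, 0.881 and 0.710 with ACM, and 0.297, 0.877, 0.780 and 1.202 with S1P. The KO groups overlapped each other, and the highest KO value belonged to the library labelled KO untreated 81, above all 4 WT untreated libraries. These levels correspond to 9 to 17 reads in untreated, 56 to 84 in ACM-treated and 273 to 441 in S1P-treated WT libraries, and 4 to 21 in KO libraries.

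Macrophage marker levels moved with these groups. The 9 markers summed to 7925 to 8121 FPKM in WT untreated, 6578 to 7309 in WT ACM and 4685 to 6477 in WT S1P libraries, with no overlap. In KO libraries the sums were 4644 to 5061 in 3 untreated libraries and 6742 in the library labelled KO untreated 81, 4825 to 5194 with ACM and 4940 to 5131 with S1P. Lyz2, the lysozyme gene and the highest of them, was 5697 to 5917 in WT untreated, 4055 to 4754 in WT ACM and 2652 to 4131 in WT S1P libraries. Without Lyz2 the other markers summed to 2106 to 2264, 2523 to 2555 and 2033 to 2345 in these WT groups, so that ACM was the highest and the other two overlapped. With ACM limma called 4 of 9 higher and 2 lower in WT cells, and with S1P 2 higher and 5 lower, the latter including Lyz2, Adgre1 and Csf1r. The part of these markers in the WT treatment results was not tested.

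On the log2(FPKM + 1) scale used for all tests, which understates changes of low genes, Cox6a2 rose by 1.59 ± 0.20 (SE) with ACM and by 3.66 ± 0.20 with S1P in WT cells (limma adjusted p = 1.42e-05 and 6.64e-12). As ratios of mean FPKM these were 4.90-fold and 24.1-fold. In KO cells the differences were 0.02 ± 0.20 and -0.05 ± 0.20 (limma adjusted p = 0.985 and 0.961), and without the library labelled KO untreated 81 they were 0.24 ± 0.19 and 0.17 ± 0.19 (0.807 and 0.862). The genotype by treatment interaction, the test of whether the treatment difference itself depended on genotype, was -1.57 ± 0.29 for ACM and -3.71 ± 0.29 for S1P (limma adjusted p = 8.73e-04 and 4.58e-09), and without that library -1.35 ± 0.25 and -3.49 ± 0.25 (8.81e-04 and 2.08e-09). Exact two-sided permutation tests gave p = 0.0286, the smallest that 4 libraries against 4 allow, for each WT treatment against untreated and for KO against WT under each treatment.

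Cox6a1, the isoform of the same subunit found in most tissues, stayed near its untreated level. In WT cells its level was 281 ± 17.2 FPKM before treatment, 285 ± 13.9 after ACM and 293 ± 12.1 after S1P, and 275 ± 17.4, 287 ± 19.9 and 296 ± 17.5 in KO cells (SD, n = 4 each). Its S1P difference in WT cells was 0.06 ± 0.06 (limma adjusted p = 0.378). Cox6a2 therefore made up 0.383% of the pair's summed FPKM in untreated WT cells, 1.82% after ACM and 8.08% after S1P, and 0.262 to 0.325% in the KO groups. The main isoform by level remained Cox6a1 in every library.

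**Figure D2:**
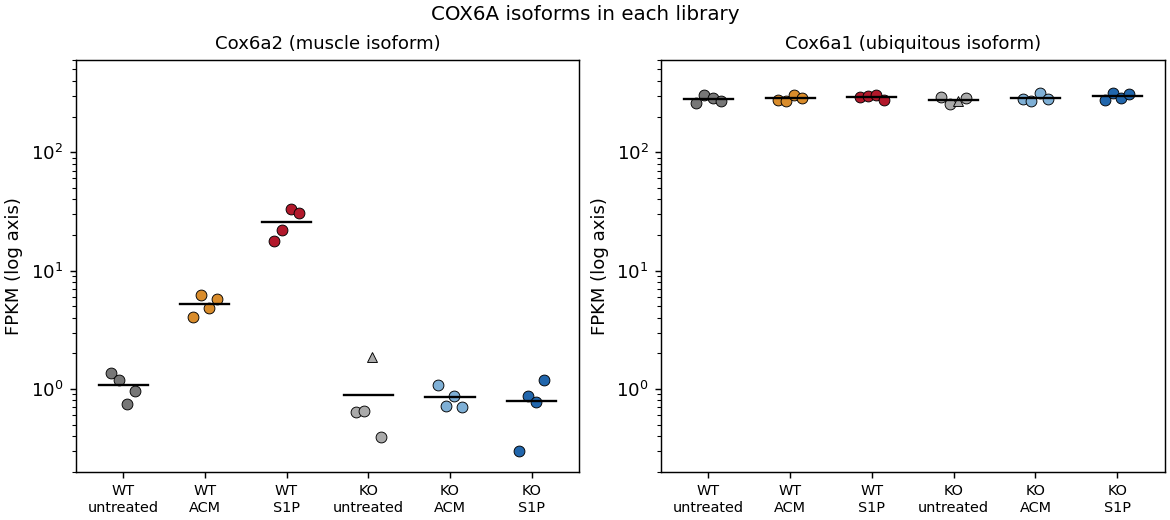
FPKM of Cox6a2 (left) and Cox6a1 (right) in each library by group, on log axes of equal range; lines are group means and the triangle the library labelled KO untreated 81. Cox6a2 steps up from WT untreated (mean 1.07) to WT ACM (5.25) and WT S1P (25.8) and lies near 1 in KO cells, while Cox6a1 is level near 286.

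Other muscle transcripts were low or listed at 0. Of 13 markers of striated muscle, a list added after the Cox6a2 values had been seen, 1 (Tnnt3, mean 1.11) reached an FPKM of 1 in 4 libraries and 5 (Mb, Myh1, Myh2, Myh6 and Actn2) were at 0 in all. Their summed level was 1.00 to 2.10 FPKM in WT untreated and 0.641 to 1.48 in WT S1P libraries. Cox6a2 has 680 bases of exon, of which 10.3% are shared with Itgad on the other strand, and Itgad was at most 0.0549 FPKM in any library. No other gene had a near-identical transcript (at least 95% identity over at least 200 bases). Other isoforms with restricted expression stayed below the filter: Cox4i2, the lung isoform of subunit IV, averaged 0.359 FPKM with 1 library just above 1, Cox6b2, the testis isoform of subunit VIb, averaged 0.316, Cox8b, the muscle isoform of subunit VIII, averaged 0.083, and Cox7b2 and Cox8c were listed at 0. The complex I genes below it were Ndufb2, with a mean of 0.618 over 5628 annotated exon bases, and Ndufa4l2. Cox6a2 and Cox7a1 were the members nearest the filter from above.

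Beyond Cox6a2, ACM in WT cells moved few subunit genes, and by small amounts. Of 61 genes limma called 5 at an adjusted p under 0.05, 2 higher and 3 lower, against 22.1% of all genes tested (12.2% higher, 9.85% lower). The members' median difference was -0.01 and that of all genes 0.00. Ndufs3, a catalytic core subunit of complex I, rose by 0.16 ± 0.04 (limma adjusted p = 0.0086), from 16.7 to 18.4 FPKM untreated to 18.7 to 20.6 with ACM. Ndufs1, the large iron-sulfur core subunit, fell by 0.12 ± 0.04 (limma adjusted p = 0.0279). Sdhd fell by 0.11 ± 0.03 and Uqcrh by 0.15 ± 0.04 (limma adjusted p = 0.0237 and 0.00506). Ndufs3 and Ndufs1 are among the 19 of 61 genes with a near-identical stretch in a transcript of another gene, with which reads could be shared. For Ndufs1 that gene is Ino80dos, which overlaps it on the other strand. The 19 also include other genes matched to an overlapping neighbour, such as Ndufb5 with Mrpl47 and Ndufa13 with Tssk6. Scaling every library to a common FPKM sum (TPM), which shifts the median of all genes by -0.10 here, gave 1 higher and 9 lower, and quantile normalization gave 2 and 8. Without WT untreated library 4 the count was 3. The short gene Gm23935, the one with the largest share of summed FPKM, held 5.29 to 9.18% of summed FPKM in WT untreated and 9.87 to 14.5% in WT ACM libraries; its part in the result was not tested.

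S1P in WT cells changed 18 subunit genes, 7 upward and 11 downward, and the share called (29.5%) lay below the 52.4% called among all genes tested (25.2% higher, 27.2% lower). The median difference was 0.04, against 0.00 over all genes. Apart from Cox6a2 the differences ran from -0.39 to 0.41. Complex I had 3 higher and 3 lower of 35, complex II 1 and 1 of 4, complex III 2 and 2 of 9, and complex IV 1 and 5 of 13. Among the 10 complex IV subunits found in most tissues, 0 rose and 4 fell. Under TPM scaling the split was 3 higher and 9 lower.

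Of those that rose, Uqcrq, a small subunit of complex III close to its coenzyme Q site, showed the largest difference after Cox6a2 (chr11:53427922-53430831, minus strand, GRCm38). Its FPKM was 46.2, 57.9, 46.9 and 44.0 untreated, 49.7, 47.0, 50.9 and 50.6 with ACM, and 55.7, 65.1, 73.7 and 65.1 with S1P. The WT S1P libraries were high, but untreated library 2 lay above S1P library 25, so these groups overlapped (exact two-sided permutation p = 0.0571). In the fit over all genes Uqcrq rose by 0.41 ± 0.08 (limma adjusted p = 1.33e-04), a 1.33-fold ratio of means. Ndufa7, an accessory subunit of complex I, went from 25.7, 27.2, 25.5 and 23.8 untreated to 29.0, 29.1, 35.5 and 32.1 with S1P, with no overlap. It rose by 0.28 ± 0.07 (limma adjusted p = 0.00139). Cyc1, the cytochrome c1 heme subunit of complex III, went from 33.9 to 36.9 FPKM up to 38.5 to 40.7, also without overlap, and rose by 0.16 ± 0.05 (limma adjusted p = 0.00619). Sdhb, Ndufa13 and Ndufs3 rose by 0.13 ± 0.03, 0.24 ± 0.09 and 0.11 ± 0.04 (limma adjusted p = 0.00161, 0.0254 and 0.027). These calls were lost in 1, 6 and 5 of 32 alternative settings. The groups overlapped for Ndufa13, at 34.9 to 44.3 FPKM untreated and 42.2 to 51.1 with S1P. Sdhb is the iron-sulfur subunit of complex II, and Ndufa13, a complex I accessory subunit also known as GRIM-19, shares exon bases with Tssk6 on the other strand.

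Among those that fell, Uqcrh, the acidic hinge protein of complex III that touches cytochrome c1, had the smallest adjusted p. Its FPKM was 49.3, 48.8, 50.5 and 48.3 untreated, 46.8, 42.2, 44.5 and 43.7 with ACM, and 41.4, 42.3, 39.3 and 41.2 with S1P. Every treated WT library lay below every untreated one. With S1P it fell by 0.26 ± 0.04 (limma adjusted p = 3.38e-06). Cox7a2, the isoform of complex IV subunit VIIa found in most tissues, was 71.6, 74.0, 74.6 and 71.9 untreated and 61.6, 63.5, 62.8 and 62.8 with S1P. The groups were well apart, and it fell by 0.22 ± 0.04 (limma adjusted p = 2.67e-04). Sdhd, a membrane anchor of complex II, was 89.5, 95.1, 95.9 and 93.7 untreated and 87.2, 83.4, 81.95 and 82.2 with S1P, again without overlap, and fell by 0.16 ± 0.03 (limma adjusted p = 2.97e-04).

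Falls with larger adjusted p were called for Uqcrfs1, the Rieske iron-sulfur protein of complex III (by 0.17), and Ndufb5 and Ndufb11 of the complex I membrane arm (by 0.18 and 0.17). Others were Ndufv3 of the NADH-oxidizing module of complex I (by 0.16), and Cox6c, Cox5a and Cox4i1 of complex IV (by 0.14, 0.11 and 0.10). Limma adjusted p for these ran from 0.0124 to 0.043. Their calls were lost in 1 (Uqcrfs1) to 8 (Cox6c) of 32 alternative settings. For Ndufb5, Cox6c, Cox5a and Cox4i1 the untreated and S1P groups overlapped. Cox7a1, the muscle isoform of subunit VIIa, fell by 0.39 ± 0.16 (limma adjusted p = 0.0453), but its groups overlapped at 3.51 to 7.00 and 2.84 to 4.55 FPKM, and the call was lost in 16 of 32 alternative settings. Its share of the summed Cox7a1 and Cox7a2 FPKM was 6.65% untreated and 5.56% with S1P. Both muscle isoforms are thus detectable in these cells. Cox6a2 was higher with S1P, while the fall of Cox7a1 carries the limits just given (exact two-sided permutation p = 0.143). Ndufb11 and Cox6c have near-identical transcripts elsewhere in the genome, and Uqcrh, Cox7a2, Sdhd, Uqcrq and Ndufa7 have none.

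**Figure D3:**
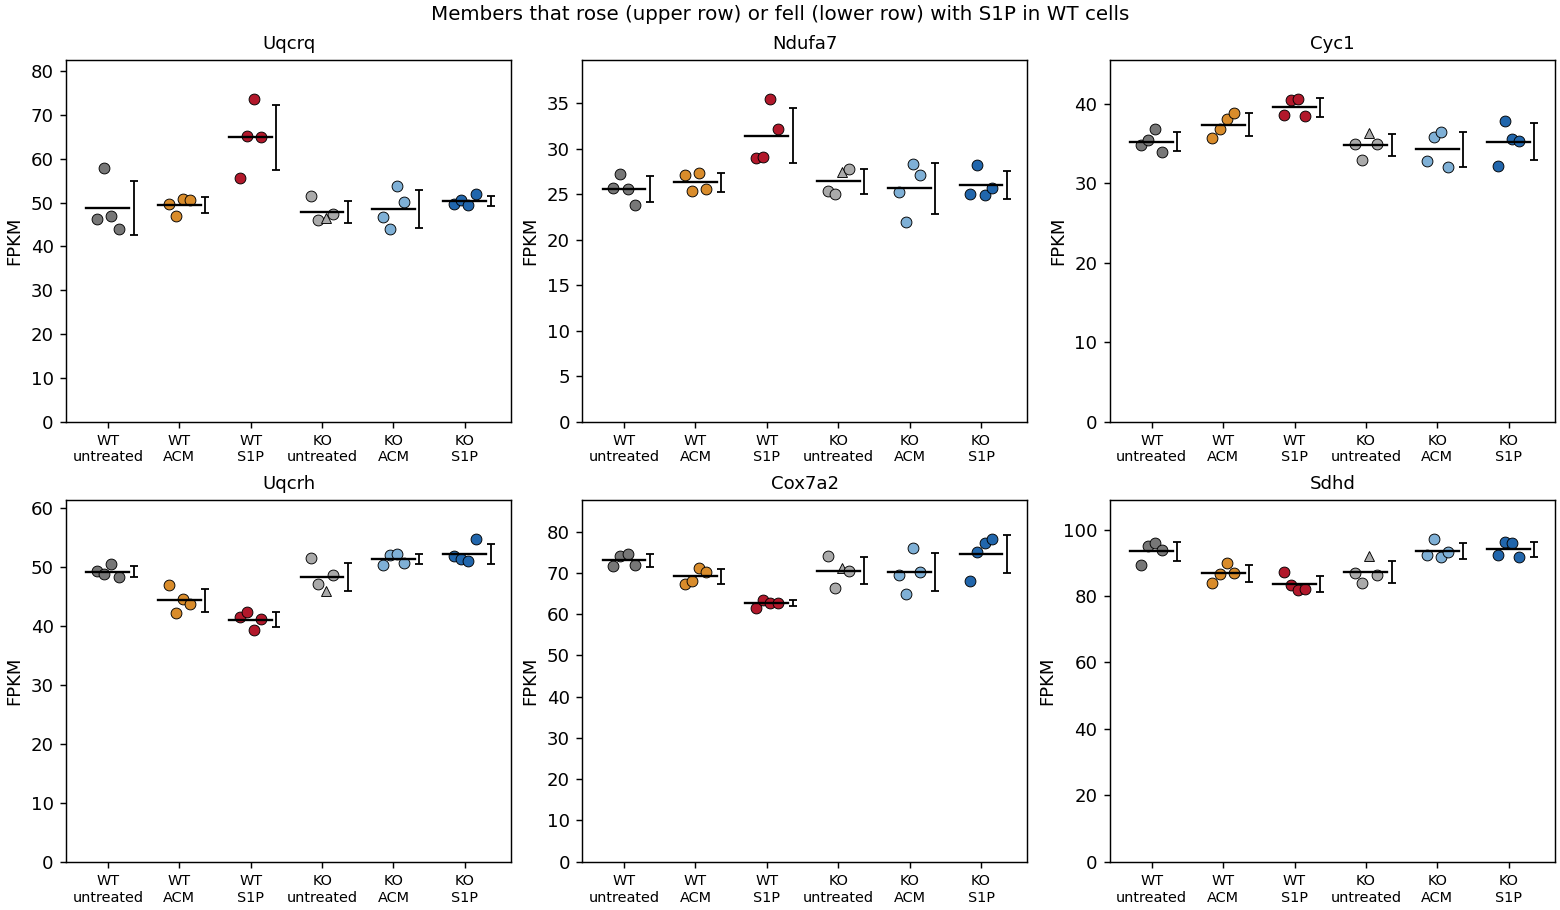
FPKM of 6 subunit genes in each library by group, 3 that rose (upper row) and 3 that fell (lower row) with S1P in WT cells; lines are means, bars 1 SD, the triangle the library labelled KO untreated 81, and axes start at 0. Uqcrh lies at 39.3 to 42.3 in WT S1P and 50.9 to 54.7 in KO S1P libraries.

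The motifs were also counted by direction. Promoters were matched for 4 of the 7 genes that rose, of which 0 held the nuclear respiratory factor 1 motif and 2 (Ndufs3 and Sdhb) the ETS motif. They were matched for 9 of the 11 that fell, of which Sdhd held both motifs and Uqcrh the ETS motif shown above. Of 36 matched genes with no call, 12 held the nuclear respiratory factor 1 motif and 7 the ETS motif. The MEF2 motif was in 0 of the 4, in 3 of the 9 (Cox7a1, Cox7a2 and Ndufb11) and in 3 of the 36, counted in the shortened form. The counts are small and no test was made.

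Between the treatments in WT cells 11 subunit genes differed, 3 higher and 8 lower with ACM, where 41.5% of all genes were called (23% higher, 18.5% lower). Cox6a2 was lower with ACM by -2.07 ± 0.20, Uqcrq by -0.38 ± 0.08 and Ndufa7 and Ndufa13 by -0.24 each, while Uqcrh, Cox7a2 and Ndufv3 were higher by 0.11, 0.14 and 0.16 (limma adjusted p from 1.81e-07 to 0.0271). The count went to 6 without WT S1P library 27 and to 7 without WT ACM library 19, and under TPM scaling the split was 0 higher and 11 lower.

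In KO cells neither treatment produced a call among the subunit genes. With ACM 0 of 61 passed limma's adjusted threshold (4 at an unadjusted p under 0.05), and with S1P 0 of 61 (13 at an unadjusted p under 0.05), where 0.00879% of all genes, 1 gene, were called in each. Without the library labelled KO untreated 81 both counts were again 0 (2 and 11 unadjusted, background 0.0439% and 0.185%). All background shares are at the adjusted threshold. The share of all genes at an unadjusted p under 0.05 was not counted, so the unadjusted counts have no background to be read against. With S1P 52 of 61 differences were positive, from -0.06 to 0.25, with a median of 0.06 against 0.00 over all genes. The share of all genes with a positive difference was not counted, and the subunit genes were all measured in the same libraries. The largest difference was that of Ndufb3, an accessory complex I subunit, at 0.25 ± 0.08 (limma adjusted p = 0.26). When library 81 was left out 54 were positive, from -0.02 to 0.22 with a median of 0.06 against 0.01 over all genes, and Ndufb3 stood at 0.22 ± 0.08 (limma adjusted p = 0.397). Uqcrh stood at 51.5, 47.1, 45.9 and 48.7 FPKM in KO untreated, 50.3, 52.0, 52.2 and 50.7 in KO ACM, and 51.9, 51.3, 50.9 and 54.7 in KO S1P libraries. Its S1P difference was 0.11 ± 0.04 (limma adjusted p = 0.286), opposite in sign to the fall in WT cells, and 0.09 ± 0.04 (0.451) without that library. KO ACM against KO S1P gave 0 calls too (2 unadjusted, background 0.0352%).

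The interaction tests put these differences between genotypes on a common footing. For S1P, 11 of 61 subunit genes were called, where 41.9% of all genes were (22.5% positive, 19.4% negative), and 12 without the library labelled KO untreated 81 (background 41.5%). A positive interaction, meaning a less negative or more positive S1P difference in KO cells, was called for Uqcrh (0.37 ± 0.05, limma adjusted p = 6.29e-06), Cox7a2 (0.30 ± 0.06), Sdhd (0.27 ± 0.05), Uqcrfs1 (0.27 ± 0.08), Cox6c and Ndufb11 (0.25 ± 0.08 each), Cox4i1 (0.20 ± 0.05) and Cox5a (0.18 ± 0.06). All of these fell with S1P in WT cells, whose libraries enter both tests. In the same order their values without the library labelled KO untreated 81 were 0.34 ± 0.05, 0.30 ± 0.07, 0.29 ± 0.04, 0.23 ± 0.07, 0.24 ± 0.08, 0.25 ± 0.09, 0.20 ± 0.05 and 0.19 ± 0.06 (limma adjusted p from 1.32e-05 to 0.0304). A negative one was called for Cox6a2, Uqcrq (-0.33 ± 0.11, limma adjusted p = 0.0183) and Ndufa7 (-0.31 ± 0.10, limma adjusted p = 0.0143). Without that library the last 2 were -0.35 ± 0.12 and -0.29 ± 0.10 (limma adjusted p = 0.0209 and 0.0275), all 11 calls were kept, and Sdhc was added at 0.14 ± 0.05 (limma adjusted p = 0.0183). For ACM 3 were called (background 17.1%, 7.41% positive and 9.64% negative; 3 without the library labelled KO untreated 81, background 14.9%): Cox6a2, Uqcrh (0.24 ± 0.05) and Sdhd (0.21 ± 0.05). The same 3 were called without it, with Uqcrh at 0.21 ± 0.05 and Sdhd at 0.23 ± 0.04 (limma adjusted p = 0.00569 and 9.28e-04). TPM scaling gave 5 calls in each interaction, 4 positive and 1 negative.

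Untreated KO and WT cells did not differ in any subunit gene past the threshold. Limma called 0 of 61 (7 at an unadjusted p under 0.05), where 2.47% of all genes were called at the adjusted threshold. Without the library labelled KO untreated 81 it called 4 (background 8.16%): Cox7a2l was higher in KO cells by 0.14 ± 0.04, and Sdhc, Sdhd and Uqcrc1 were lower by -0.15 ± 0.03, -0.12 ± 0.03 and -0.13 ± 0.04 (limma adjusted p from 0.00978 to 0.0478). In that library Sdhc was 46.6 FPKM, against 38.0 to 40.5 in the 3 other KO untreated and 42.5 to 44.8 in the WT untreated libraries. Cox7a2l was 106 there, against 123 in the 3 others and 107 to 113 in WT untreated cells. Cox7a2l encodes a factor that joins complexes III and IV into supercomplexes, of which C57BL/6 mice carry a shortened form.

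Under treatment the genotypes differed more. With ACM 9 of 61 subunit genes were called (background 28%, 12.5% higher and 15.5% lower), 5 higher and 4 lower in KO cells; TPM scaling gave 4 and 1, and quantile normalization 13 and 4. Cox6a2 was lower by -1.75 ± 0.20, Sdhc by -0.17 ± 0.05, Ndufs3 by -0.16 ± 0.04 and Uqcrc1 by -0.14 ± 0.04, while Ndufb11 was higher by 0.24 ± 0.06, Uqcrh by 0.21 ± 0.04, Cox7a2l by 0.18 ± 0.04 and Sdhd by 0.11 ± 0.03 (limma adjusted p from 2.64e-06 to 0.0171). Cox6c, at 0.15 ± 0.06, lost its call (limma adjusted p = 0.0492) in 20 of 32 alternative settings.

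With S1P 20 of 61 were called (background 52.4%, 26.9% higher and 25.4% lower), 12 higher and 8 lower in KO cells, and 7 and 8 under TPM scaling. Higher in KO cells were Cox7a1 (0.50 ± 0.16), Uqcrh (0.34 ± 0.04), Ndufv3 (0.33 ± 0.06), Cox6c (0.31 ± 0.06), Ndufb11 (0.28 ± 0.06) and Cox7a2 (0.25 ± 0.04), with limma adjusted p from 7.45e-08 to 0.0121. Lower were Cox6a2 (-3.89 ± 0.20, 32.7-fold as a ratio of mean FPKM), Uqcrq (-0.35 ± 0.08), Ndufa7 (-0.26 ± 0.07) and, at -0.18 ± 0.04 and -0.11 ± 0.03, Uqcrc1 and Uqcrc2, the pair of core proteins of complex III (limma adjusted p from 3.41e-12 to 0.00917). The other calls were Cyc1, Ndufv1 and Sdhb lower, and Ndufa4, Ndufa9, Cox7a2l, Sdhd, Cox4i1 and Uqcrfs1 higher, all between -0.16 and 0.18. Of 32 alternative settings, the call was lost in 9 for Ndufa4, 8 for Ndufv1 and 6 for Ndufa9. It was lost in 0 for Cyc1, Sdhb and Sdhd, and in 1 each for Cox7a2l, Cox4i1 and Uqcrfs1. Ndufa4 carries a complex I name but its protein is now counted with complex IV. In Uqcrq and Uqcrh the KO S1P libraries, at 49.5 to 52.0 and 50.9 to 54.7 FPKM, lay wholly outside the WT S1P range. Granulocyte markers moved with genotype: 3 of 6 reached an FPKM of 1 in 4 libraries, led by S100a9, and their sum was 4.98 to 9.32 in WT and 18.3 to 21.2 in KO treated libraries. Macrophage marker sums, given above by group, were lower in KO than in WT libraries with ACM and overlapped with S1P. The part of either list in the genotype results was not tested.

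**Figure D4:**
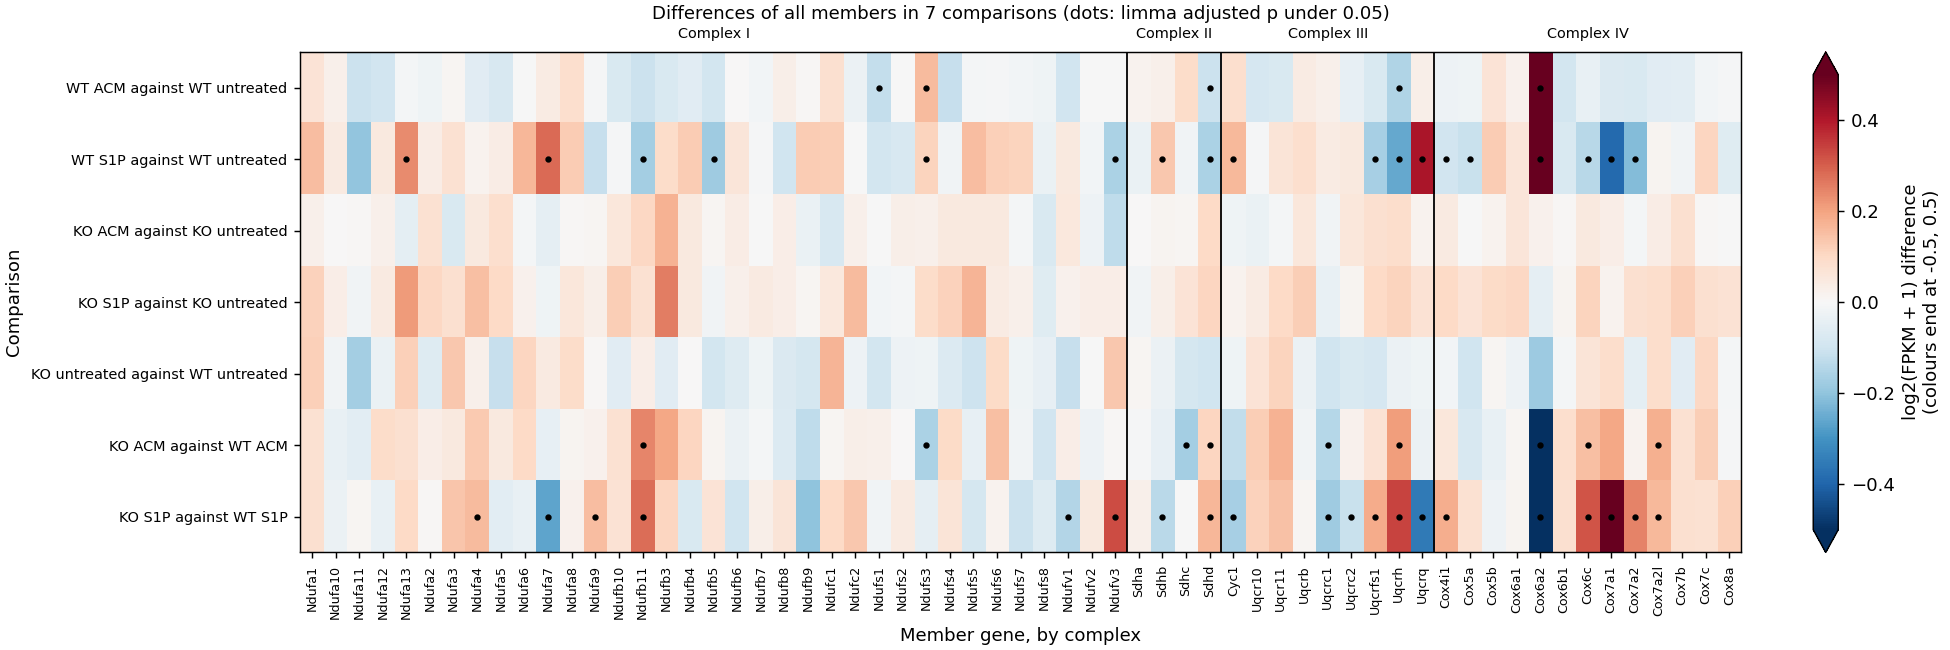
Log2(FPKM + 1) differences of all 61 subunit genes (columns, by complex) in 7 comparisons (rows); red is higher and blue lower in the first-named group, colours end at -0.5 and 0.5, and dots mark limma adjusted p under 0.05. Dots number 5 and 18 in the WT treatment rows, 0 in the KO treatment rows, and 20 in KO against WT under S1P.

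Complex II has 4 subunits, and they differed among themselves. The flavin-bearing Sdha was level, at 58.3 ± 2.83, 59.1 ± 1.01 and 57.0 ± 3.19 FPKM in WT untreated, ACM and S1P cells, and 58.7 ± 1.45, 58.8 ± 0.983 and 58.0 ± 1.07 in KO cells (SD, n = 4 each). Sdhb was 45.1 ± 1.47, 46.0 ± 1.42 and 49.6 ± 1.03 in WT and 44.1 ± 1.52, 44.6 ± 1.07 and 45.1 ± 1.66 in KO cells, so that WT S1P was the highest group. Of the membrane anchors, Sdhc was 43.6 ± 0.970, 46.6 ± 0.446 and 43.1 ± 1.38 in WT cells, with all 4 ACM libraries above the untreated ones but no call (0.09 ± 0.05, limma adjusted p = 0.158). Sdhd in KO cells was 86.9, 83.9 and 86.5 untreated and 91.95 in the library labelled KO untreated 81. It was 91.7 to 97.2 with ACM and 91.6 to 96.3 with S1P. Apart from library 81, the untreated values lay below all treated ones, though limma made no call for either treatment in KO cells.

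Genes that build, feed or regulate the chain were read from the same fit. The 13 subunits encoded in the mitochondrial genome had 0 calls with S1P in WT cells (0 at an unadjusted p under 0.05, median 0.07, limma), while with ACM 5 fell and 0 rose, where 9.85% of all genes were called lower and 12.2% higher; among them was mt-Cytb (-0.22 ± 0.05, limma adjusted p = 0.00446), the complex III cytochrome b. ATP synthase subunits had 3 higher and 6 lower of 19 with S1P in WT cells. Atp5o fell by 0.46 ± 0.09 and Atp5j2 by 0.20 ± 0.05 (limma adjusted p = 1.57e-04 and 8.95e-04). Of all genes tested 25.2% were called higher and 27.2% lower with S1P. Complex I assembly factors had 4 higher and 2 lower of 20, those of complexes II and III 1 and 0 of 8, and those of complex IV 6 and 1 of 22. Timmdc1 and Ndufaf4, assembly factors of complex I, rose by 0.35 ± 0.06 and 0.24 ± 0.06, Uqcc3 of complex III by 0.31 ± 0.07, and Surf1 and Coa5 of complex IV by 0.43 ± 0.06 and 0.29 ± 0.05 (limma adjusted p from 2.25e-06 to 9.29e-04).

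Cytochrome c and the enzymes of coenzyme Q synthesis had 7 higher and 1 lower of 14, with Coq7, a hydroxylase of that pathway, up by 0.48 ± 0.06 and Coq10a, a coenzyme Q binding protein, up by 0.32 ± 0.06 (limma adjusted p = 1.04e-06 and 6.49e-05). The tricarboxylic acid cycle, which supplies NADH and succinate, had 5 higher and 3 lower of 15. Fumarase (Fh1) fell by 0.39 ± 0.04 and Idh3a, a subunit of NAD-dependent isocitrate dehydrogenase, by 0.38 ± 0.05 (limma adjusted p = 4.31e-08 and 3.35e-06). Of 18 regulators of mitochondrial transcription and biogenesis 3 rose (Esrra, Mterf3 and Pprc1) and 7 fell. Those that fell were Nrf1, Gabpa and Yy1, whose proteins bind the motifs searched above, Gabpb2, a partner subunit of the Gabpa protein, and Tfam (-0.24 ± 0.05), Polg (-0.19 ± 0.04) and Polg2, which serve mitochondrial DNA. Each share is to be read against the 52.4% of all genes called. In KO cells S1P gave 0 calls in each of these lists, and the interaction was called for Fh1 (0.49 ± 0.06), Surf1 (-0.39 ± 0.08) and Coq7 (-0.37 ± 0.09), with limma adjusted p from 7.88e-07 to 0.00139. With library 81 left out S1P again gave 0 calls in KO cells among the 129 genes of these lists, and the 3 interactions were 0.49 ± 0.06, -0.38 ± 0.09 and -0.33 ± 0.09 (limma adjusted p from 1.93e-06 to 0.00362).

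**Figure D5:**
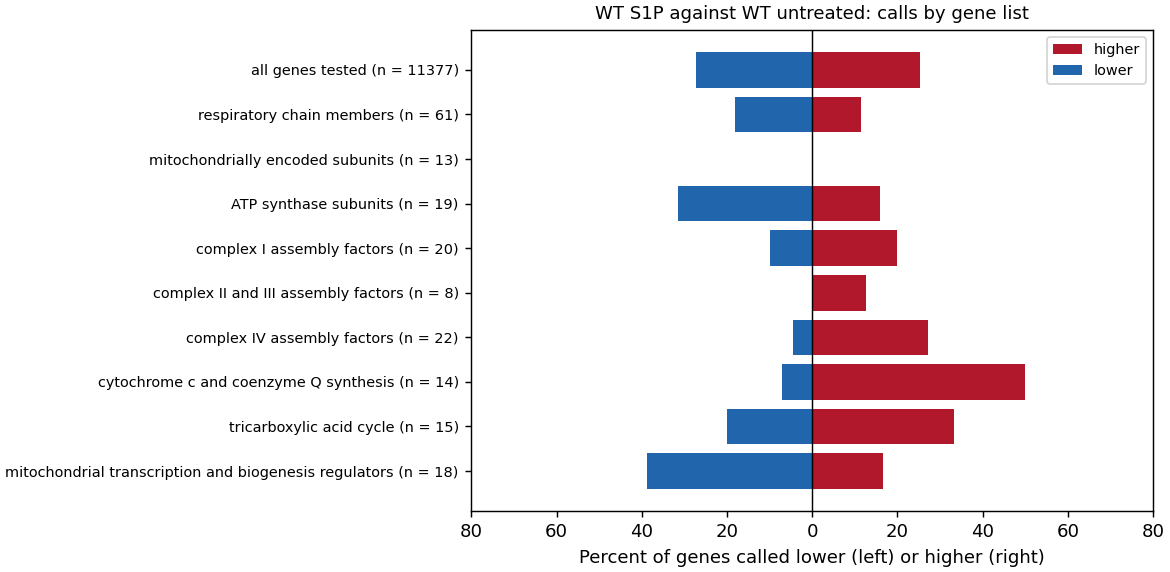
Percent of the genes in each list, and of all genes tested, that limma called lower (left) or higher (right) with S1P in WT cells; n is the number of genes tested. Cytochrome c and coenzyme Q synthesis has 7 of 14 higher and complex IV assembly factors 6 of 22, beside 25.2% of all genes tested.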

How the data were processed

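Per the labels' protocols, messenger RNA was captured with oligo(dT) beads. For each of 24 libraries the authors deposited FPKM values, 54532 genes in all. The submitters' processing notes list, with builds GRCm38 and mm10, the tools StringTie, HISAT2, STAR, STAR-Fusion, featureCounts, DESeq and edgeR; the sources used here do not give their roles, order or strand setting. If strand was ignored, reads of overlapping genes on opposite strands cannot be told apart (18 of 61 subunit genes share exon bases with such a gene), and reads of near-identical genes may be split.

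Identifiers were matched to GENCODE M21 (54495 named, 37 not). The 11377 genes reaching FPKM 1 in 4 libraries were tested by limma (3.58.1, R 4.3.3) after taking log2(FPKM + 1), fitting 6 group means together with a variance trend and drawing 11 comparisons from them. A gene is called when its Benjamini-Hochberg adjusted p, taken across every gene tested, is under 0.05. The test was checked on simulated data. Depth follows from FPKM steps, of which 96.4 to 96.7% per library gave whole reads within 0.05. Exact permutation tests used scipy 1.17.1. The subunit genes, gene lists, motifs and tests were chosen with earlier results of these data known. Named are all of complex II, the isoform pairs, the highest and lowest gene of each complex, the smallest adjusted p per complex, the largest called changes per comparison, the 3 smallest p of each interaction and 2 genes per pathway list; other called genes were named after their values were seen. The alternatives were a pseudocount of 0.1, no filter, a filter at FPKM 5, TPM, median and quantile scaling, robust moderation, fitting only the groups compared, and leaving out each library.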

Additional observations from a re-analysis of the deposited data

Results flagged for a closer look

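Of 186 groups of 4 libraries examined, 8 held a library set apart from the other 3 by Dixon's criterion; chance alone flags about 1 in 20 groups. Cox6a1 was 316.55 FPKM in KO ACM library 87, against 273.27 to 279.32 in the others. Cox7a2l was 106.76 in WT untreated library 1 (others 112.94 to 113.25) and 105.88 in the library labelled KO untreated 81 (others 122.61 to 123.21). Ndufs1 was 9.042 in WT ACM library 22 (others 9.7286 to 9.8047) and 10.065 in KO S1P library 93 (others 9.5223 to 9.5642). Ndufs3 was 18.695 in WT ACM library 19 (others 20.306 to 20.588), and Ndufv3 was 24.157 in the library labelled KO untreated 81 (others 26.488 to 26.742). The complex I sum was 1211.9 FPKM in KO untreated library 80, against 1255.1 to 1260.5.

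The treatment difference depended on genotype, by limma's interaction test, in 14 cases. For ACM the interaction on the log2(FPKM + 1) scale was -1.566 for Cox6a2, 0.206 for Sdhd and 0.2362 for Uqcrh. For S1P it was -3.709 for Cox6a2, -0.3321 for Uqcrq and -0.3073 for Ndufa7. The positive S1P values were 0.3672 for Uqcrh, 0.297 for Cox7a2, 0.2684 for Uqcrfs1, 0.2659 for Sdhd, 0.2498 for Cox6c, 0.2474 for Ndufb11, 0.1961 for Cox4i1 and 0.1775 for Cox5a.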

How the results depend on the processing

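Of 77 calls of subunit genes over the 11 comparisons, 0 changed sign in any of 32 alternative settings, and those of Cox6a2 were kept in all. TPM scaling lost 26, fitting only the groups compared 15, omitting the filter 13, quantile normalization 4, median scaling 1, and the other pseudocount, the FPKM 5 filter and robust moderation 0; leaving out a library lost 0 to 13, most without WT S1P library 28. The number of subunit genes called in WT ACM against untreated (5) went to 10 with TPM and to 10 with quantile normalization. In KO ACM against WT ACM (9) it went to 5 and 17, in the ACM interaction (3) to 5 and 6, in the S1P interaction (11) to 5 with TPM, in WT ACM against WT S1P (11) to 6 with no filter, and in KO untreated against WT untreated (0) to 1 with quantile normalization; the cause was not tested. Leaving out each library in turn gave 3 to 6 in WT ACM, 13 to 22 in WT S1P, 0 in both KO treatments and between them, 0 to 4 in untreated KO against WT, 8 to 12 with ACM and 17 to 22 with S1P in KO against WT, 6 to 13 in WT ACM against WT S1P, and 3 to 4 and 9 to 13 in the ACM and S1P interactions. TPM moved the subunits' median difference to -0.13 in WT ACM, 0.08 in KO ACM against WT ACM, -0.12 in WT ACM against WT S1P and 0.15 in the ACM interaction. No paired analysis was possible because the groups share no replicate numbers. Depth limits Cox6a2 in KO cells, where 4 to 21 reads stand behind each value.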
